A study of Mus musculus with 12 samples.

Results

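Mouse embryonic fibroblasts, primary cells grown out of midgestation embryos, were compared in the state before Cre recombinase acts: cells labelled Nrf2 KO against cells labelled Keap1 wild type (WT). The comparison took 6 of the 12 libraries of the series, 3 in each group, and the 20844 genes listed in both deposited tables, of 23186 listed in either. The libraries were taken by their treatment and genotype labels, as those infected with empty adenovirus. The labelled KO cells carry LSL-Nrf2D29H on both alleles (titled Nrf2LSL/LSL), a design in which a floxed stop cassette precedes a mutant form of NRF2. The WT cells carry CA-Keap1R554Q on both alleles without Cre (titled Keap1WT/WT). All 6 cultures shared fibroblast isolation at embryonic day 13.5 to 14.5, pyruvate-free DMEM with 10% serum, empty adenovirus at a multiplicity of 500 and collection 4 days after infection. The same lines given Cre adenovirus are titled Nrf2D29H/D29H (D29H below) and Keap1R554Q/R554Q (R554Q below), again with 3 libraries each.

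The labels do not name the groups as littermates. Mouse line, culture, deposited table and allele all change together between labelled KO and WT, and their parts in any difference below cannot be told apart. The sources used here do not say whether the 3 libraries of a group came from separate embryos, cell lines or infections. The p-values therefore measure the spread between libraries, which may be technical.

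NRF2, encoded by Nfe2l2, is a transcription factor that pairs with small MAF proteins at antioxidant response elements. KEAP1 binds NRF2 in unstressed cells and presents it to a CUL3 ubiquitin ligase for degradation, so that most control of the pathway acts on the protein and not on the transcript. Its targets detoxify quinones and electrophiles, make and use glutathione and thioredoxin, supply NADPH, and handle heme and iron, and many of them keep a basal level of expression in fibroblasts that depends on NRF2.

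Libraries held 14963004 to 23818477 counted reads, and labelled KO replicate 3 was the shallowest. That library stood apart from its group: the chi-square per degree of freedom against each of the other labelled KO libraries was 21.9 and 14.2, against 4.92 between those and 4.66 to 7.32 among the WT libraries. Counts without it are given below for the genes and lists they change. Mitochondrial genes took 0.725% to 1.09% of reads. Fibroblast markers were abundant in every library, with summed levels of 24523 to 26978 RPM (reads of the list scaled to the reads of the library) in labelled KO and 20120 to 22447 in WT.

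Of 14146 genes with enough reads to test, 1661 were higher in labelled KO than in WT (11.7%) and 1610 were lower (11.4%) at an adjusted p under 0.05. Below, a gene is called higher or lower when it passed that threshold (edgeR's quasi-likelihood test with Benjamini-Hochberg adjustment over all tested genes). A change of 2-fold or more was found among called genes for 268 higher (1.89%) and 274 lower (1.94%). The median log2 fold change over all tested genes was -0.0019, so the scale was centred. Fits that left out each library in turn called 1127 to 2341 genes higher and 1027 to 2112 lower, and 899 higher and 804 lower calls were kept in all 6 fits. Without labelled KO replicate 2 there were 1027 lower calls, without WT replicate 1 there were 1066, and without labelled KO replicate 3 there were 2112.

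The targeted transcript itself did not follow the label. Nfe2l2 (chr2:75675513-75704641 in the deposited tables, GRCm38) stood at 46.2, 39.7 and 40.7 CPM (read counts scaled to library size) in the labelled KO libraries and at 42.1, 43.6 and 41.1 in WT. The groups overlapped, with a difference of -0.0018 on the log2 scale (SE 0.08, adjusted p = 0.991). A gene total holds reads from every exon, and these tables do not show whether the transcript of the labelled allele encodes the protein, so the total does not check the loss of NRF2 protein. The cells are called labelled KO for that reason. Keap1 (chr9:21229730-21239332) was at 40.5, 39.9 and 44.3 CPM in labelled KO and at 46.0, 41.4 and 49.8 in WT, again overlapping, and differed by -0.14 log2 units (SE 0.09, adjusted p = 0.27). It passed the threshold only after adjustment for GC content and length, at -0.22.

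Of 12 genes for partners and regulators of NRF2, 3 were lower in labelled KO, against 11.4% of all tested genes, and none was higher, also at an unadjusted p under 0.05, with DESeq2 and with limma. Mafk, a small MAF partner, had 97.1, 102 and 87.0 CPM in labelled KO against 133, 120.2 and 137 in WT (log2 fold change -0.44, SE 0.08, adjusted p = 0.00118). Maff, another small MAF gene, had 61.1, 66.2 and 59.8 CPM against 80.1, 76.8 and 85.6 (log2 fold change -0.37, adjusted p = 0.00253). Nfe2l1, which encodes the related factor NRF1, had 272, 280.5 and 285 CPM against 355, 355 and 365 (log2 fold change -0.36, adjusted p = 0.00245). In all 3 genes the labelled KO libraries lay below every WT library. Bach1, a repressor that competes for the same sites, was not called (log2 fold change 0.13, adjusted p = 0.23). Its labelled KO libraries lay above all WT libraries, as did those of Btrc, a ubiquitin ligase subunit (log2 fold change 0.14, adjusted p = 0.298).

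NRF2 target genes were mostly lower in the labelled KO cells although the Nfe2l2 transcript was not. Of 49 listed targets, 48 were in both tables and 44 had enough reads to test; 25 of the 44 were lower and 2 were higher, against 11.4% and 11.7% of all tested genes. The median log2 fold change over the 44 was -0.33, against -0.0019 over all tested genes. For 30 targets all labelled KO libraries lay below all WT libraries and for 2 they lay above, against 18.9% of all tested genes below and another 18.9% above. The summed level of the list was 7412 to 7939 RPM in labelled KO and 10657 to 11020 in WT. The 5 heme and iron genes held the largest part of that sum, 3728 to 4231 RPM in labelled KO and 6240 to 6765 in WT. Summed levels of the quinone and carbonyl genes overlapped between groups, at 993 to 1051 RPM against 1028 to 1082, and those of the other roles did not. Leaving out 1 library at a time gave 20 to 27 lower and 0 to 2 higher targets, and without labelled KO replicate 3 there were 27 lower and 2 higher. The higher calls fell to 0 without WT replicate 1 and to 1 without WT replicate 2 or 3. Gsta1, Gsta2, Gsta3 and Abcc2 had too few reads to test, and Gstm3 was not in both tables.

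**Figure D1:**
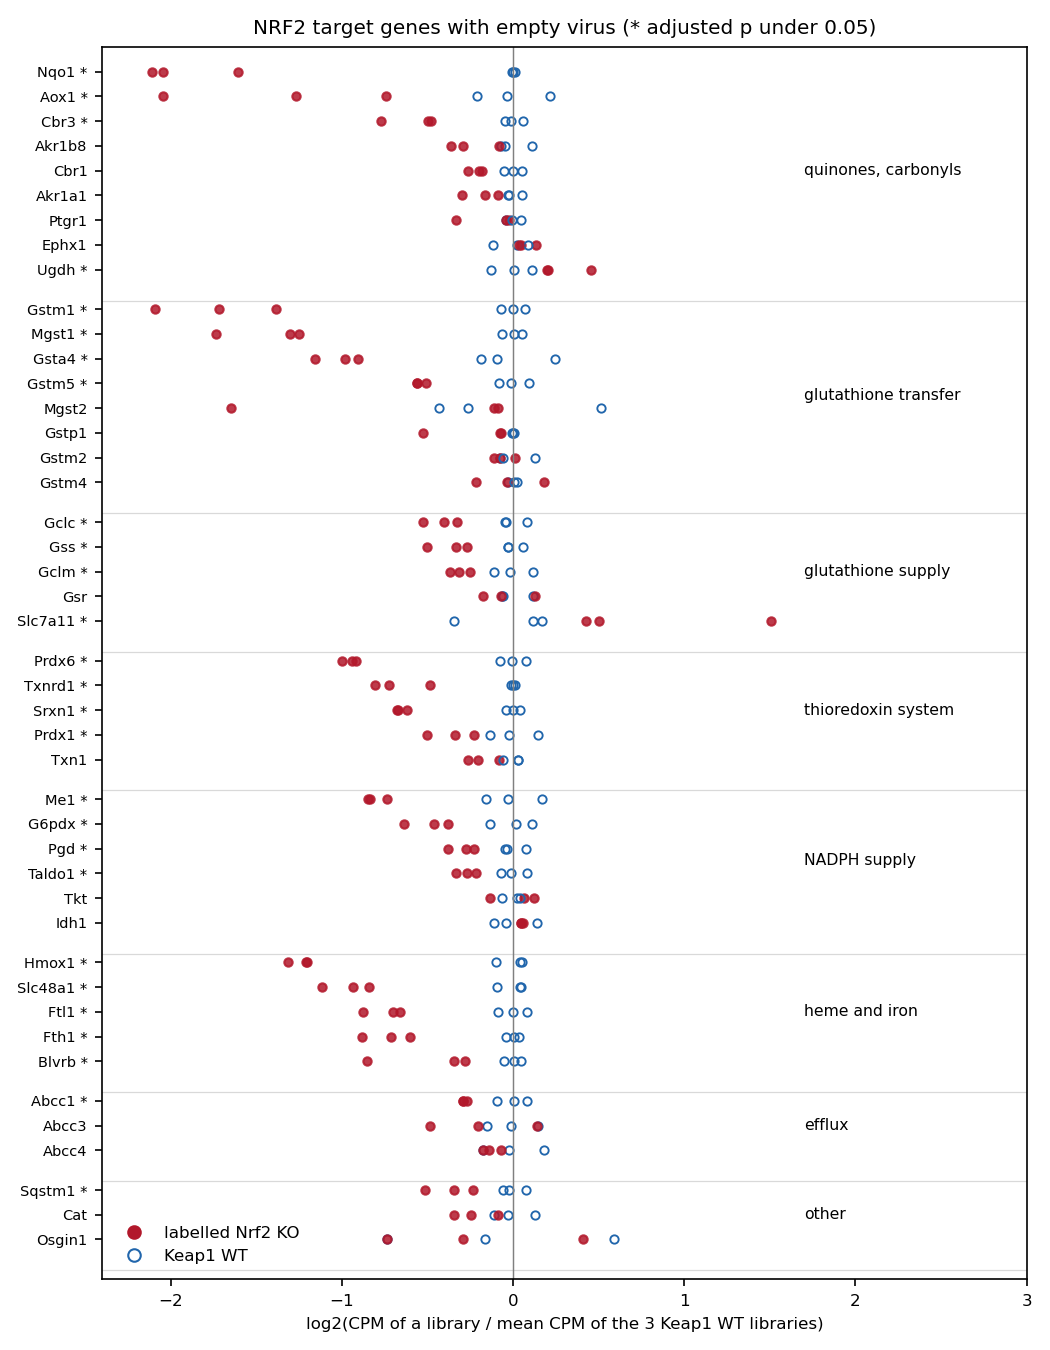
Level of 44 tested NRF2 target genes in each library, as the log2 ratio of CPM to the mean CPM of the 3 WT libraries (x axis), grouped by role (y axis). Filled red points are labelled KO libraries, open blue points are WT libraries, and an asterisk marks an adjusted p under 0.05. The red points lie to the left of the blue ones for most genes, by the widest margin for Nqo1 and Gstm1, and to the right for Slc7a11 and Ugdh.

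Among genes for quinone and carbonyl reduction, 3 of 9 were lower and 1 was higher; the shares of all tested genes, for this and the other roles below, are 11.4% and 11.7%. Nqo1, the NAD(P)H quinone reductase often used as a readout of NRF2 (chr8:107388225-107403206), had 10.7, 7.91 and 7.55 CPM in labelled KO and 32.4, 32.6 and 32.9 in WT. The groups were far apart, and the labelled KO level was 27.0% of WT (log2 fold change -1.89, SE 0.12, adjusted p = 1.73e-08). Cbr3, a carbonyl reductase, had 18.0, 18.2 and 14.9 CPM against 26.4, 24.5 and 25.2 (log2 fold change -0.57, adjusted p = 0.000589). Aox1, an aldehyde oxidase, was sparse at 0.969 to 2.39 CPM against 3.45 to 4.64 (log2 fold change -1.20, SE 0.25, adjusted p = 0.00269). Neither Cbr3 nor Aox1 overlapped between groups. Ugdh, which makes UDP-glucuronic acid, ran the other way at 124, 125 and 149 CPM against 99.2, 117 and 109 (log2 fold change 0.29, SE 0.09, adjusted p = 0.0287). Its call was lost without WT replicate 1 (log2 fold change 0.23) or WT replicate 3 (0.29). Cbr1, Akr1a1, Akr1b8, Ephx1 and Ptgr1 were not called.

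Of 8 tested glutathione transferases, 4 were lower and none was higher. Gstm1 had 4.43, 3.52 and 2.71 CPM in labelled KO and 11, 11.6 and 12.1 in WT, 31.4% of the WT level (log2 fold change -1.67, SE 0.15, adjusted p = 1.32e-06). Mgst1, a membrane-bound transferase, had 8.77, 8.45 and 6.26 CPM against 20.0, 21.6 and 21.0, 38.0% of WT (log2 fold change -1.39, SE 0.12, adjusted p = 5.95e-07). In both genes the highest labelled KO library was far below the lowest WT library. Gsta4 had 2.97 to 3.54 CPM against 5.80 to 7.84 (log2 fold change -1.0, adjusted p = 0.000421), and Gstm5 had 13.5 to 14 against 18.8 to 21.2 (log2 fold change -0.54, adjusted p = 0.000648). Gstm2, Gstm4, Gstp1 and Mgst2 were not called. Members of the Gstm cluster are close in sequence, and how the authors counted reads that fit several of them is not given in the sources used here.

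The genes that make and recycle glutathione were split. Gclc, the catalytic subunit of the rate-limiting ligase, had 20.0, 19 and 17.4 CPM in labelled KO and 24.4, 24.3 and 26.5 in WT (log2 fold change -0.41, SE 0.09, adjusted p = 0.00425). Its modifier subunit Gclm had 29.8, 27.4 and 28.5 against 32.8, 38.5 and 35.1 (log2 fold change -0.31, adjusted p = 0.0172), and the call was lost without WT replicate 2 (-0.25) or labelled KO replicate 2 (-0.28). Gss, glutathione synthetase, had 43.0, 48.3 and 50.5 against 59.6, 59.6 and 63.2 (log2 fold change -0.37, adjusted p = 0.00385). For each of these 3 genes the labelled KO range ended below the WT range. Gsr, glutathione reductase, was not called (log2 fold change -0.04, adjusted p = 0.822).

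Slc7a11, the cystine importer that feeds glutathione synthesis (chr3:50364936-50443613), was higher in labelled KO. It had 5.03, 4.76 and 10.1 CPM in labelled KO and 2.80, 4.00 and 3.85 in WT (log2 fold change 0.86, SE 0.25, adjusted p = 0.0217). All 3 labelled KO libraries were above all WT libraries, but replicate 3, the library that stood apart, was well above the rest of its group. Without it the log2 fold change was 0.48 (adjusted p = 0.0443). The call was lost without WT replicate 1 (0.71) or WT replicate 2 (0.95).

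Thioredoxin-system genes were lower in 4 of 5 cases. Prdx6, a peroxiredoxin that uses glutathione, had 108, 109.7 and 104 CPM in labelled KO and 197, 219 and 206 in WT, 51.7% of WT (log2 fold change -0.95, SE 0.08, adjusted p = 3.32e-07). Txnrd1, thioredoxin reductase, had 176, 187 and 221 against 309, 306 and 312 (log2 fold change -0.67, adjusted p = 4.82e-05). Srxn1, which restores over-oxidised peroxiredoxins, had 36.6, 36.4 and 37.9 against 59.9, 56.7 and 58.3 (log2 fold change -0.66, adjusted p = 1.1e-05). The libraries of each of these genes fell into 2 separate ranges. Prdx1 had 401 to 486 CPM against 517 to 629 (log2 fold change -0.35, adjusted p = 0.0134), a call lost without WT replicate 2 (-0.27) or labelled KO replicate 2 (-0.36). Txn1, thioredoxin itself, was not called at 544, 500.0 and 480.1 CPM against 588, 588 and 553 (log2 fold change -0.18, adjusted p = 0.124).

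Of 6 genes that yield NADPH, 4 were lower. Me1, the cytosolic malic enzyme, had 68.1, 68.7 and 73.3 CPM in labelled KO and 109.6, 138 and 119.9 in WT (log2 fold change -0.81, SE 0.09, adjusted p = 7.96e-06). G6pdx, which opens the pentose phosphate pathway, had 23.3, 27.8 and 26.3 against 33.0, 39.1 and 36.6 (log2 fold change -0.49, adjusted p = 0.00143). Neither gene overlapped between groups. Pgd (log2 fold change -0.29, adjusted p = 0.012) and Taldo1 (-0.27, adjusted p = 0.0183), later steps of the same pathway, were lower by less. The Pgd call was lost without WT replicate 3 (-0.25), labelled KO replicate 1 (-0.24) or labelled KO replicate 2 (-0.30), and the Taldo1 call without WT replicate 1 (-0.28) or 3 (-0.23) or labelled KO replicate 1 (-0.23) or 2 (-0.30). Tkt and Idh1 were not called, at log2 fold changes of 0.02 and 0.05.

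The heme and iron group was lower in all 5 tested members, with a summed level of 3728 to 4231 RPM in labelled KO and 6240 to 6765 in WT. Hmox1, the heme oxygenase (chr8:75093591-75100596), had 52.0, 48.1 and 51.8 CPM in labelled KO and 111, 124 and 123 in WT, 42.3% of WT (log2 fold change -1.24, SE 0.08, adjusted p = 2.14e-08). Slc48a1, a heme transporter, had 70.7, 75.5 and 62.5 against 127, 139.8 and 139 (log2 fold change -0.96, adjusted p = 9.64e-07). Every labelled KO library was far below the lowest WT library for both. The ferritin chains moved together: Ftl1 had 3499.6, 3599 and 3091 CPM against 5668, 5351 and 6017 (log2 fold change -0.74, adjusted p = 2.76e-05), and Fth1 had 466, 432 and 383 against 686, 725 and 709.8 (log2 fold change -0.73, adjusted p = 1.78e-05). Ferritin genes have processed copies in the mouse genome, so some of their reads may be shared. Blvrb, a biliverdin reductase, had 19.7, 18.8 and 13.2 CPM against 24.1, 23.0 and 24.7 (log2 fold change -0.46, adjusted p = 0.0125). It was -0.30 without labelled KO replicate 3, and its call was lost without WT replicate 3 (-0.44).

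Of the remaining targets, Abcc1, a glutathione-conjugate exporter, had 99.2, 99.1 and 101 CPM in labelled KO and 114, 128 and 122 in WT (log2 fold change -0.28, adjusted p = 0.0133). Its call was lost without WT replicate 2 (-0.24), WT replicate 3 (-0.28) or labelled KO replicate 2 (-0.28). Sqstm1, the autophagy adaptor p62, had 241, 271 and 293 against 340.0, 331 and 364 (log2 fold change -0.36, adjusted p = 0.00644). Abcc4, another exporter, overlapped between groups at 7.28, 7.45 and 7.81 CPM against 7.27, 9.29 and 8.07 and was not called (log2 fold change -0.13, adjusted p = 0.516). Abcc3, Osgin1 and Cat were not called either.

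Promoters of the targets were searched for the letters TGACNNNGC on both strands, a core of the antioxidant response element, from 250 bases before to 50 bases after each RefSeq start (GRCm38.p6). The letters were present in 14 of 52 promoters of listed targets (26.9%), covering 13 of 41 matched genes, and in 9 of 27 promoters of targets lower in labelled KO (33.3%). They were present in 14.3% of the promoters of tested genes, in 12.4% of all promoter windows of this length and in 13.5% of the promoters of all genes lower in labelled KO. A match is a description of the letters and not a mapped binding site. The stretches below show the matching letters, in capitals, for 6 lower targets from several roles, each read 5′ to 3′ on the gene's strand with 16 bases on either side; a match on the opposite strand reads GCNNNGTCA. The Prdx1 match also overlaps TGAGTCA, the letters of an AP-1 site.
Gstm5, chr3:107895796-107895836, plus strand: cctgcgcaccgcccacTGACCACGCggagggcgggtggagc
Gclm, chr3:122245407-122245447, plus strand: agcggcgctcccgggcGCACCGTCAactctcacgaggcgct
Prdx1, chr4:116685450-116685490, plus strand: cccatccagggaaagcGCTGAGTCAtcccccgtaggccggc
Mgst1, chr6:138140455-138140495, plus strand: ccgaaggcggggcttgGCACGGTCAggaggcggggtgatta
Txnrd1, chr10:82859098-82859138, plus strand: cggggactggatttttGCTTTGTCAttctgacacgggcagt
G6pdx, chrX:74428913-74428953, minus strand: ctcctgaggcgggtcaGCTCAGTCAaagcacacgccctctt
Of these 6, the match of Gstm5 is nearest to its start, with 33 bases between, and that of Gclm farthest, with 125.

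Outside the NRF2 list, the genes with the widest differences were partly gene copies. The widest differences were taken among called genes whose groups did not overlap, averaging 100 reads or more and holding 10 or more in each library. On the higher side Rpl29 came first, a ribosomal protein gene at 760.4, 747 and 649.6 CPM in labelled KO against 157, 142 and 168 in WT (log2 fold change 2.21, SE 0.09, adjusted p = 1.48e-10). On the lower side the pseudogene Tma7-ps came first, at 2.77, 2.77 and 2.13 CPM against 99.5, 80.2 and 90.4 (log2 fold change -5.11, adjusted p = 7.65e-14). Pcna-ps2 (-4.11) and Gpr137b-ps (-2.18) were further copies among the 10 widest on that side, with Eif3j2 (-3.08), the histone genes Hist1h2ab (-2.60) and Hist1h3b (-2.23), Uts2b (-2.4) and Lce1h (-1.92). Reads of such copies, of Rpl29 and of clustered histone genes may be shared with near-identical sequence elsewhere, so these values are uncertain.

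The other 9 of the 10 widest on the higher side included genes of the matrix, of signalling and of blood cells. Pxylp1, a phosphatase that acts on the linker of proteoglycans, had 11.9, 13 and 14.5 CPM against 2.56, 2.75 and 3.48 (log2 fold change 2.16, adjusted p = 4.86e-08). Mfap4 (1.87), a microfibril protein whose gene overlaps Mapk7, and Abi3bp (1.58) belong to the extracellular matrix. Cxcl1 (1.69) and Cxcl5 (1.54) encode chemokines that attract neutrophils, and Iqgap2 (1.58) a scaffold. Fcrls (1.56) and Coro1a (1.53) are expressed mainly in macrophages and other leukocytes, and Tbx4 (1.53) is a hindlimb transcription factor. The groups did not overlap for any of these genes, and every one was also higher in D29H than in R554Q, the same lines after Cre.

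Each direction held 1 gene that was nearly silent in one group. Ifi202b, an interferon-inducible gene (chr1:173962569-173982844), had 174, 140 and 84 reads in the labelled KO libraries and 0, 1 and 0 in WT. The pseudogene Gm11868 (chr4:18844202-18845679) had 2, 1 and 0 reads in labelled KO and 166, 164 and 122 in WT. Both kept that state after Cre, with 231, 223 and 161 Ifi202b reads in D29H against 1, 0 and 0 in R554Q, and 5, 4 and 5 Gm11868 reads against 150, 98 and 151.

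Genes around the engineered loci were called about as often as elsewhere. Within 5 Mb of Nfe2l2, 18 of 65 tested genes were called in either direction (27.7%, 95% Wilson interval 18.3 to 39.6), and within 5 Mb of Keap1, 18 of 78 (23.1%, interval 15.1 to 33.6), against 23.1% of all tested genes. The intervals cover counting error only, and neighbouring genes are not independent. Called genes within 1 Mb with a change of 2-fold or more all lay near Keap1. They were Olfm2, at 2.81, 2.98 and 2.45 CPM against 6.29, 6.64 and 7.07 (log2 fold change -1.26), Spc24, a kinetochore gene (1.01), A230050P20Rik (1.19), which overlaps Angptl6, and Gm16754 (1.93), which overlaps Keap1 itself. Use of strand in the counting is not given in the sources used here, so reads of these overlapping genes cannot be told apart.

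Hox genes mark position along the body and limb axes, and fibroblasts keep the pattern of the site they came from. Of 36 tested Hox genes, 11 were higher in labelled KO and 2 were lower, against 11.7% and 11.4% of all tested genes, with a median log2 fold change of 0.10. By paralog number, 9 of 12 genes of paralog groups 10 to 13, which mark distal limb and caudal trunk, were higher and none was lower, also at an unadjusted p under 0.05, with DESeq2 (8 higher) and with limma (9 higher). Their median log2 fold change was 0.75, and their summed level was 252 to 257 RPM in labelled KO against 132 to 145 in WT. Of 24 genes of groups 1 to 9, 2 were higher and 2 lower, shares near those of all tested genes, with a median of -0.01 and summed levels of 256 to 274 against 255 to 282. The difference between these 2 sets of Hox genes was not tested.

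Hoxd13, the most 5′ gene of its cluster, had 107, 106 and 111 CPM in labelled KO and 51.4, 50.3 and 56.4 in WT (log2 fold change 1.03, SE 0.08, adjusted p = 1.12e-07). Hoxd12 had 4.90, 5.92 and 6.07 against 2.24, 2.00 and 2.21 (log2 fold change 1.38, adjusted p = 3.31e-05), and Hoxc12 had 3.36, 4.02 and 3.74 against 1.40, 1.8 and 1.32 (log2 fold change 1.30, adjusted p = 0.000385). No library of one group reached the range of the other in these 3 genes. Hoxd11 (0.91), Hoxc11 (0.83), Hoxa13 (0.74), Hoxa10 (0.65), Hoxd10 (0.52) and Hoxa11 (0.48) were the other higher genes of groups 10 to 13. The Hoxc11 call was lost without labelled KO replicate 2 (0.74), and the Hoxd10 call was lost on leaving out any library but labelled KO replicate 3 (0.50 to 0.54). Hoxa9 (0.70) and Hoxa6 (0.61, a call lost on leaving out WT replicate 2 or 3 or labelled KO replicate 1 or 2, at 0.45 to 0.56, and with DESeq2 and limma) were higher and Hoxc8 (-0.56) and Hoxb9 (-0.30) were lower among the more 3′ genes. The Hoxb9 call was lost without WT replicate 1 (-0.29).

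Other transcription factors of body position were higher for 8 of 30 tested and lower for 3, against 11.7% and 11.4% of all tested genes. Tbx4, the hindlimb factor, had 17.8, 17.7 and 17.6 CPM in labelled KO and 5.73, 5.15 and 7.54 in WT (log2 fold change 1.53, SE 0.13, adjusted p = 4.93e-07). Nkx3-2, a factor of the axial skeleton, had 4.98, 3.73 and 2.97 against 1.03, 1.25 and 1.74 (log2 fold change 1.57, adjusted p = 0.000347). The groups did not overlap for either gene. Foxd1 had 9.80, 12.5 and 8.33 CPM against 4.52, 4.75 and 5.69 (log2 fold change 1.05, adjusted p = 0.00018), while after Cre its log2 difference between the lines was 0.02. Msx1 (0.88) and Pitx1 (0.73) were higher and Msx2 (-0.96) was lower.

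**Figure D2:**
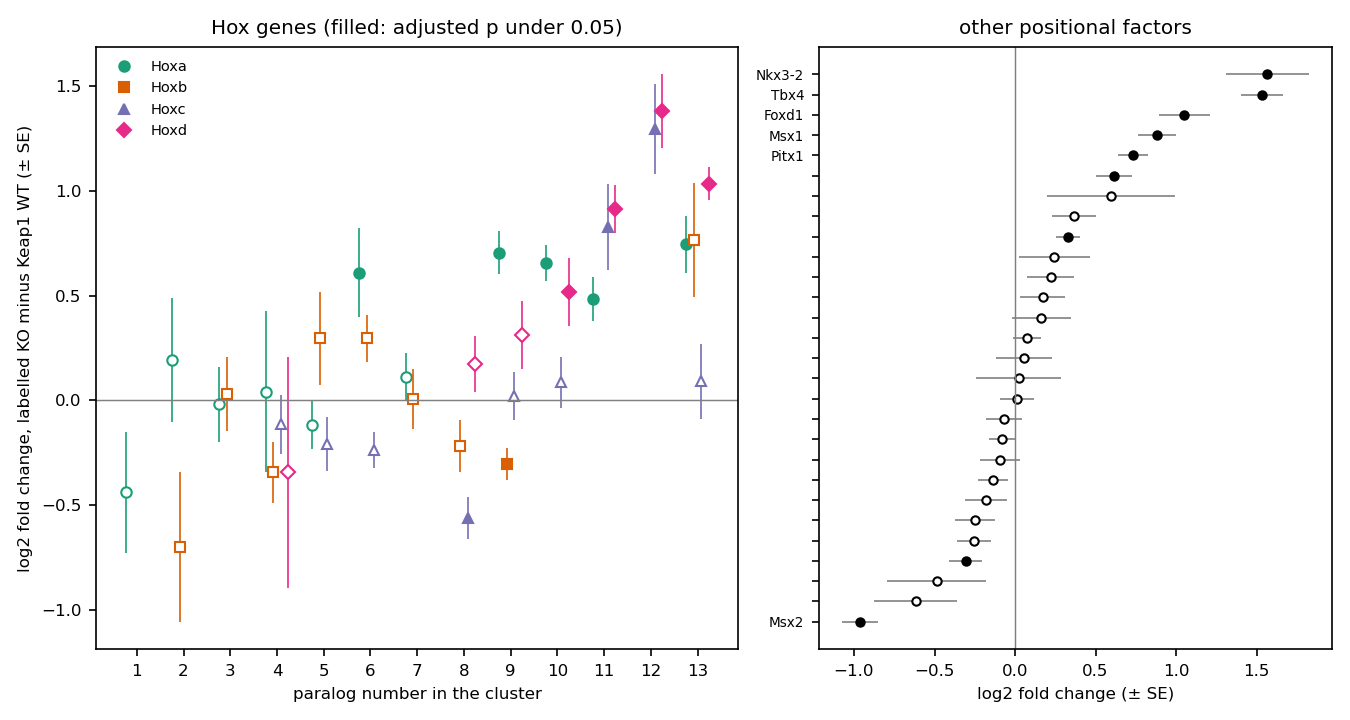
Log2 fold change of labelled KO over WT (axis in log2 units, bars are the standard error) for 36 Hox genes by paralog number and cluster (left) and for 28 other positional transcription factors (right, labelled where the text names them). Filled points have an adjusted p under 0.05. Called Hox genes with high paralog numbers lie above 0, up to 1.38 for Hoxd12, and the other factors spread from -0.96 for Msx2 to 1.57 for Nkx3-2.

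Markers of cell types other than fibroblasts also differed between the groups. Of 13 macrophage markers, 11 were higher in labelled KO, against 11.7% of all tested genes, and none was lower, also with DESeq2 and limma (11 higher each) and at an unadjusted p under 0.05 (12 higher). Their median log2 fold change was 1.12 and their summed level was 178 to 218 RPM in labelled KO against 113 to 125 in WT. Csf1r, the receptor for macrophage colony-stimulating factor, had 19.3, 18.4 and 18.1 CPM against 6.53, 7.04 and 7.96 (log2 fold change 1.38, SE 0.11, adjusted p = 2.91e-07). The complement gene C1qc had 14.9, 14 and 14.4 against 5.13, 6.39 and 7.54 (log2 fold change 1.19, adjusted p = 9e-06), and Mrc1, a mannose receptor, had 3.54, 5.05 and 4.71 against 1.54, 1.75 and 1.69 (log2 fold change 1.41, adjusted p = 0.000141). All 3 labelled KO libraries were above all WT libraries in each. Lyz2, the lysozyme gene, overlapped between groups and was not called (log2 fold change 0.26). Aif1, sparse at 0.213 to 0.621 CPM in labelled KO and 0.549 to 0.738 in WT, was not called either and leaned the other way (log2 fold change -0.77, adjusted p = 0.248). In bulk RNA, more cells of a type and more RNA per cell cannot be told apart.

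Cartilage genes were higher for 5 of 6 tested, against 11.7% of all tested genes, with a summed level of 202 to 243 RPM in labelled KO against 144 to 162 in WT. Col2a1, the cartilage collagen, had 27.0, 33.6 and 32.9 CPM against 15.3, 14.3 and 19.1 (log2 fold change 0.94, adjusted p = 2.57e-05), with Matn3 at 1.53, Acan at 0.91 and Sox9 at 0.46. Comp, another cartilage matrix gene, ran the other way without being called, at 1.02, 1.08 and 0.839 CPM against 1.77, 1.40 and 1.32 (log2 fold change -0.59, adjusted p = 0.148), with all labelled KO libraries below WT. Matn1 had 0 to 1 reads. Among 12 fibroblast genes, 5 were higher and 2 lower, against 11.7% and 11.4% of all tested genes: Col3a1 had 973, 1023 and 1103 CPM against 489, 513 and 535 (log2 fold change 1.01), while Lum (0.91), Col1a2 (0.58) and Col1a1 (0.47) were also higher. The lowest labelled KO library was far above the highest WT library for Col3a1. The 2 lower calls, Dcn and Fn1, at -0.28 and -0.26, were each lost in every fit without 1 library except that without labelled KO replicate 3 (-0.34 to -0.20 for Dcn and -0.29 to -0.21 for Fn1), and limma called no fibroblast gene lower.

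Neural markers were lower for 3 of 6 tested, against 11.4% of all tested genes here and for the muscle and epithelial lists, and higher for none, also by DESeq2, limma and unadjusted p (0 higher), with summed levels of 202 to 225 RPM against 240 to 256. Stmn2, a neuronal tubulin regulator, had 10.6, 10.3 and 11.8 CPM in labelled KO and 26.5, 27.3 and 27.1 in WT (log2 fold change -1.31, adjusted p = 8.81e-08), and Sox10, a neural crest factor, was at -1.62. The skeletal actin Acta1 had 118, 124 and 114 CPM against 311, 328 and 345 (log2 fold change -1.47), the only call among 4 tested skeletal muscle genes, and Myog had 0 to 2 reads. The keratins Krt18 (-0.91) and Krt8 (-1.03, a call lost on leaving out any library but labelled KO replicate 3) were the 2 calls among 3 tested epithelial genes, of which the third was at 0.13. The summed level of the epithelial list was 58.6 to 74.9 RPM in labelled KO against 57.4 to 64.6 in WT, and Epcam had 0 to 6 reads, Cdh1 1 to 11 and Krt5 0 to 5. None of 4 endothelial genes was called by edgeR, DESeq2 or limma (1 higher at an unadjusted p under 0.05, and 1 by edgeR without labelled KO replicate 1 or 3), and Pecam1 had 0 to 6 reads and Cdh5 0 to 5. Globin and liver genes summed to 0 to 0.203 RPM, so none was tested. The part of these marker differences in the NRF2 target result was not tested.

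Contractile genes were lower in labelled KO for 9 of 10 tested, against 11.4% of all tested genes, and higher for none (unadjusted p, DESeq2 and limma included), with 7 to 10 lower when 1 library was left out. The summed level was 15785 to 16327 RPM against 21645 to 21838 in WT. Myh11, smooth muscle myosin, had 14.4, 15.3 and 18.8 CPM against 42.2, 47.9 and 44.2 (log2 fold change -1.48, SE 0.10, adjusted p = 5.49e-08). Tagln had 5894, 5745 and 4816 CPM against 9019, 8432 and 9007 (log2 fold change -0.69, adjusted p = 9.67e-05), and Cnn1, calponin, had 209, 225 and 233 against 330.2, 343 and 349 (log2 fold change -0.62). The ranges were separate for all 3 genes. Tpm1 was not called (log2 fold change -0.15, adjusted p = 0.255).

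Proliferation genes were higher in labelled KO for all 20 tested, against 11.7% of all tested genes, with a median log2 fold change of 0.68 and a summed level of 2108 to 2343 RPM against 1339 to 1411. Aurka, a mitotic kinase, had 105, 104 and 109.8 CPM against 49.0, 53.2 and 53.6 (log2 fold change 1.03, SE 0.08, adjusted p = 9.86e-08). Plk1, another mitotic kinase, had 70.7, 76.0 and 89.4 against 39.0, 38.9 and 41.1 (log2 fold change 0.99), and Ccnb1, cyclin B1, had 123, 116 and 125 against 62.9, 76.4 and 66.9 (log2 fold change 0.82). Every labelled KO library was above every WT library in these and the other 17 genes, as in 18.9% of all tested genes. Leaving out 1 library kept 18 to 20 of the calls. Rrm2, a ribonucleotide reductase subunit and the least changed at 0.29, was at 0.18 without labelled KO replicate 3 (adjusted p = 0.0522), and its call was kept only in the fit without labelled KO replicate 1.

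Interferon-stimulated genes were higher for 7 of 15 tested, against 11.7% of all tested genes, and lower for none (unadjusted p 12 higher, DESeq2 6 higher), with summed levels of 136 to 144 RPM against 93.0 to 100.5. Isg15, a ubiquitin-like modifier, had 5.45, 4.85 and 3.23 CPM against 1.96, 1.95 and 1.58 (log2 fold change 1.32, SE 0.22, adjusted p = 0.000424), and Irf7, a transcription factor, had 2.51, 2.86 and 2.65 against 1.40, 1.30 and 1.48 (log2 fold change 0.94, adjusted p = 0.00586). Both were separate between groups, at low levels. Ifit1 was at 1.60, a call lost without WT replicate 1 (1.21) or labelled KO replicate 2 (1.32), and Cxcl10 at 1.17, a call lost without any 1 WT library or without labelled KO replicate 2 (0.81). Among 16 tested cytokine and protease genes, 3 were higher and 5 lower, against 11.7% and 11.4% of all tested genes. Cxcl5 had 44.1, 38.5 and 45.8 CPM against 15.1, 16 and 12.9, whereas the collagenase Mmp13 had 2.60, 1.99 and 1.49 against 7.09, 7.74 and 5.54 (log2 fold change -1.71), and the gelatinase Mmp2 had 76.3, 72.6 and 79.4 against 142, 154 and 165 (log2 fold change -1.01). Il6 was lower too, at -1.40. The lower calls were 3 without WT replicate 2 or labelled KO replicate 1 or 2. The macrophage list was higher beside the interferon genes and the chemokines, with 11 of 13 markers called as above, and its part in them was not tested.

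Sterol synthesis genes were higher for 13 of 18 tested, against 11.7% of all tested genes, and lower for none by edgeR (adjusted or unadjusted), DESeq2 and limma, all by less than 2-fold, with a median log2 fold change of 0.32. Dhcr7, the last enzyme of one branch, had 22.5, 23.5 and 25.9 CPM against 17.6, 17.3 and 18.0 (log2 fold change 0.44, SE 0.09, adjusted p = 0.00277), with every labelled KO library above WT. Mvk, mevalonate kinase, was at 0.40 and Insig1, a sterol sensor of the pathway, at 0.39. Without WT replicate 1 only 7 of the 18 were called.

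Lists tied to amino acid supply, stress and growth were mixed. Of 18 serine synthesis and ATF4 genes, 6 were higher and 3 lower, against 11.7% and 11.4% of all tested genes. The higher ones were led by the amino acid transporter Slc7a5 (0.55), Shmt1 (0.44) and Trib3 (0.40), and the lower ones by Asns (-0.38) and Atf5 (-0.38). The higher calls were 3 without WT replicate 1 or labelled KO replicate 2. Of 16 p53 targets, 2 were higher and 3 lower, and of 12 imprinted growth genes 2 were higher and 2 lower, shares near the 11.7% and 11.4% of all tested genes. Among the p53 targets Perp, a cell adhesion and death gene, had 40.2, 40.6 and 38.2 CPM against 91.2, 103 and 100.2 (log2 fold change -1.30), with Pmaip1 at -0.99. Every labelled KO library was far below WT for Perp. The higher p53 calls numbered 0 without WT replicate 1 or labelled KO replicate 2, 1 without WT replicate 2 or labelled KO replicate 1, and 4 without labelled KO replicate 3. The called imprinted genes were Mest at 0.58, Plagl1 at 0.27, Cdkn1c at -0.26 and Peg3 at -0.22; without 1 library the lower calls ran from 0 to 4, and the Plagl1, Cdkn1c and Peg3 calls were each lost in 4 or 5 of the 6 fits. None of 18 glycolysis and hypoxia genes was called by edgeR, DESeq2 or limma (0 higher and 1 lower at an unadjusted p under 0.05), and without labelled KO replicate 3 there were 1 higher and 1 lower. The 3 genes Nnt (-0.07), Glo1 (-0.18) and Alad (0.20), which vary between some mouse strains, were not called, and 1 was called higher without labelled KO replicate 3. Ifi202b and Gm11868, described above, were each nearly silent in 1 group. Whether the lines share a strain background was not tested.

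Without labelled KO replicate 3, the library that stood apart, several lists had more calls, as did the tested genes as a whole. That fit called 2341 genes higher and 2112 lower, against 1661 and 1610 with all 6 libraries. Hox genes had 14 higher and 3 lower, regulators 4 lower, macrophage markers 12 higher, fibroblast genes 6 higher and epithelial genes 3 lower of 4 then tested. Interferon genes had 8 higher of 17 then tested, sterol genes 14 higher, cytokine and protease genes 4 higher, serine and ATF4 genes 8 higher and 2 lower, and contractile genes 10 lower. Proliferation genes had 19 higher, and imprinted genes 1 higher and 4 lower.

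**Figure D3:**
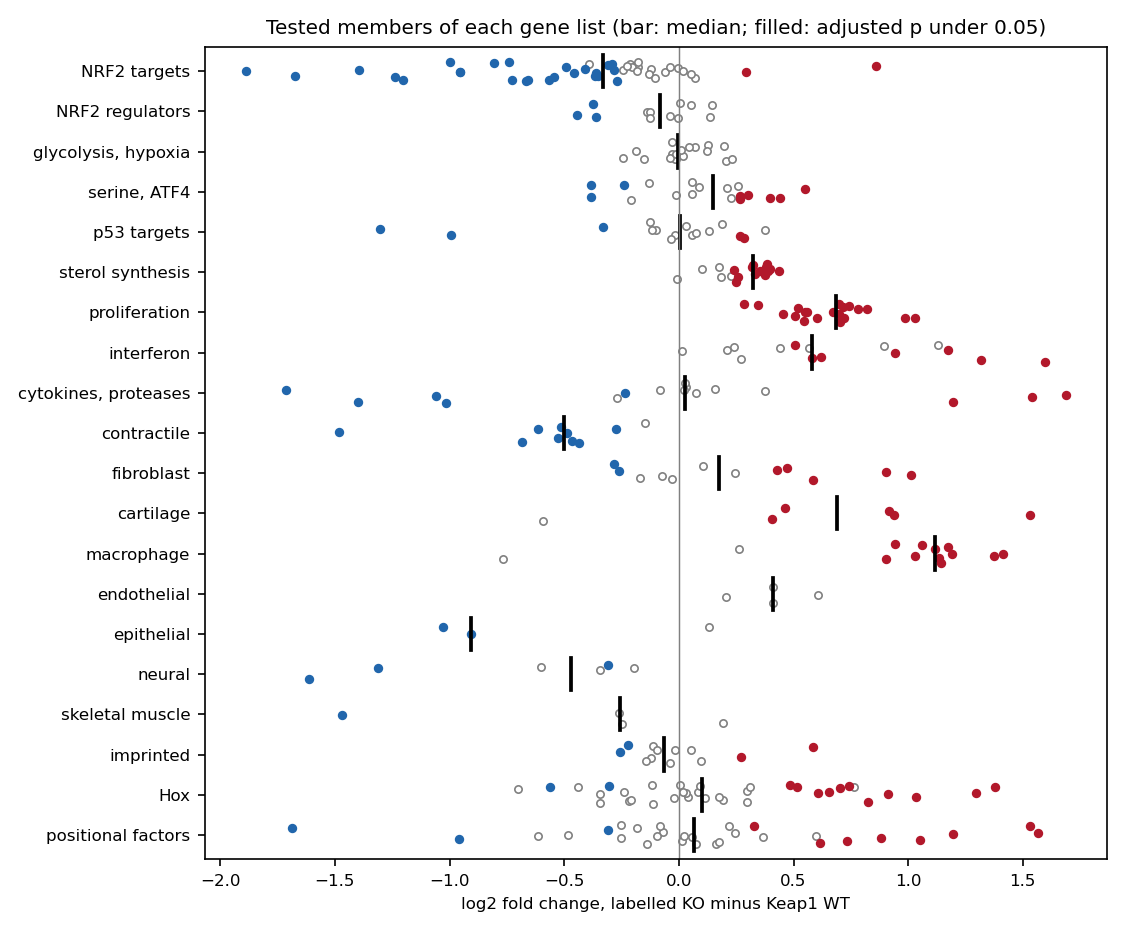
Log2 fold change of labelled KO over WT (axis in log2 units) for the tested members of 20 gene lists, one point per gene, with the bar at each list's median. Filled points have an adjusted p under 0.05, red for higher and blue for lower. Macrophage, cartilage, proliferation, interferon and sterol medians lie above 0, and NRF2 target, contractile, neural and epithelial medians lie below 0.

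The same 2 lines were compared after Cre adenovirus, D29H against R554Q, with no library in common with the empty-virus comparison but with line and table differing in the same way. Of 14403 tested genes, 1665 were higher in D29H (11.6%) and 1686 lower (11.7%). Of the 1661 genes higher in labelled KO, 1657 were tested after Cre and 908 were also higher in D29H, which is 54.8% of the former and 55.8% of the Cre calls tested in both. Of the 1610 lower genes, 1600 were tested and 909 were also lower, 56.8% and 55.3%. Calls in opposite directions were found for 7 genes: Slc7a11, higher in labelled KO, and 2010107E04Rik, 8030451A03Rik, Pfdn4, mt-Nd4, Ptges3l and Rps27, lower in it. Across 14005 genes tested in both, the 2 log2 differences had Pearson's r = 0.786 and Spearman's rho = 0.635, a description across genes, which are not independent replicates and come from the same lines.

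**Figure D4:**
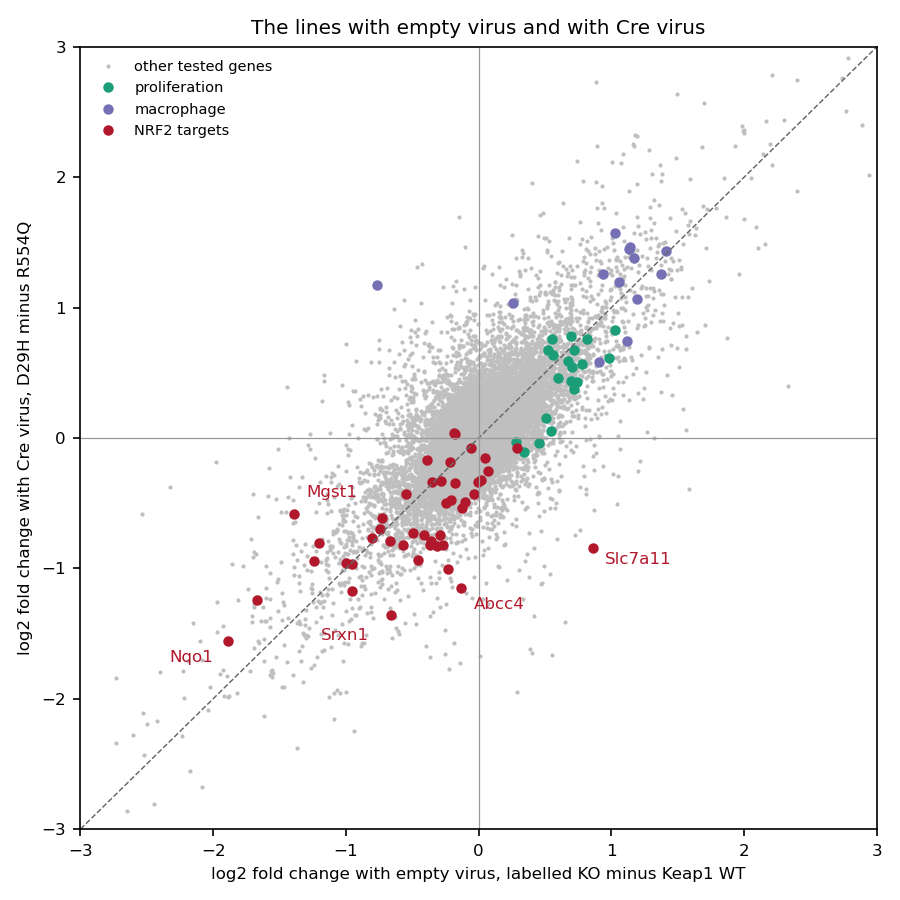
Log2 fold change of labelled KO over WT with empty virus (x axis) against that of D29H over R554Q with Cre virus (y axis), one point per gene tested in both, with NRF2 targets marked. Axes end at 3 log2 units and 36 genes lie outside them. Points spread along the rising diagonal, and most NRF2 targets lie in the lower left, with Slc7a11 to the lower right.

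All 25 NRF2 targets that were lower in labelled KO than in WT were also lower in D29H than in R554Q. Of all genes lower in labelled KO and tested after Cre, 56.8% were also lower in D29H. In the Cre comparison 11.6% of all tested genes were higher and 11.7% lower, the shares for the counts that follow. In that Cre comparison 35 of 44 targets were lower, with a median log2 difference of -0.71. By list, 12 of 13 macrophage markers, 15 of 20 proliferation genes, 11 of 15 interferon genes and 7 of 12 Hox genes of groups 10 to 13 were higher in D29H than in R554Q, and 8 of 10 contractile genes were lower. Sterol genes were higher for 6 of 18 and cartilage genes for 3 of 6, against 13 and 5 with empty virus. Positional factors other than Hox genes were higher for 4 of 30 and lower for 6, against 8 and 3 with empty virus, and their median log2 difference was -0.09 against 0.07.

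Levels in all 4 groups, scaled together over 12 libraries, gave labelled KO the lowest mean for 35 of the 44 tested NRF2 targets, D29H for 8 and WT for 1. R554Q had the highest mean for 39. The summed list was 7412 to 7939 RPM in labelled KO, 10657 to 11020 in WT, 11505 to 12557 in D29H and 17328 to 18704 in R554Q. Its largest part was the 5 heme and iron genes, at 3728 to 4231, 6240 to 6765, 6665 to 7299 and 9936 to 11712 RPM in the same order. Mean Nqo1 was 8.82 CPM in labelled KO, 33.2 in WT, 119 in D29H and 351 in R554Q. Mean Hmox1 was 51.2, 121, 134 and 259 CPM in the same order, and mean Gstm1 3.59, 11.8, 19.2 and 45.2. Some targets broke that order: Prdx6 had means of 108, 211, 158 and 355 CPM and Me1 70.8, 124, 85.8 and 146, so that D29H lay below WT, while Slc7a11 had 6.70, 3.6, 10.2 and 18.2, so that WT lay lowest. The groups of a line share the line and its table but differ in virus and in the genotype of their titles. Labelled KO and WT share the virus but neither line nor table.

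**Figure D5:**
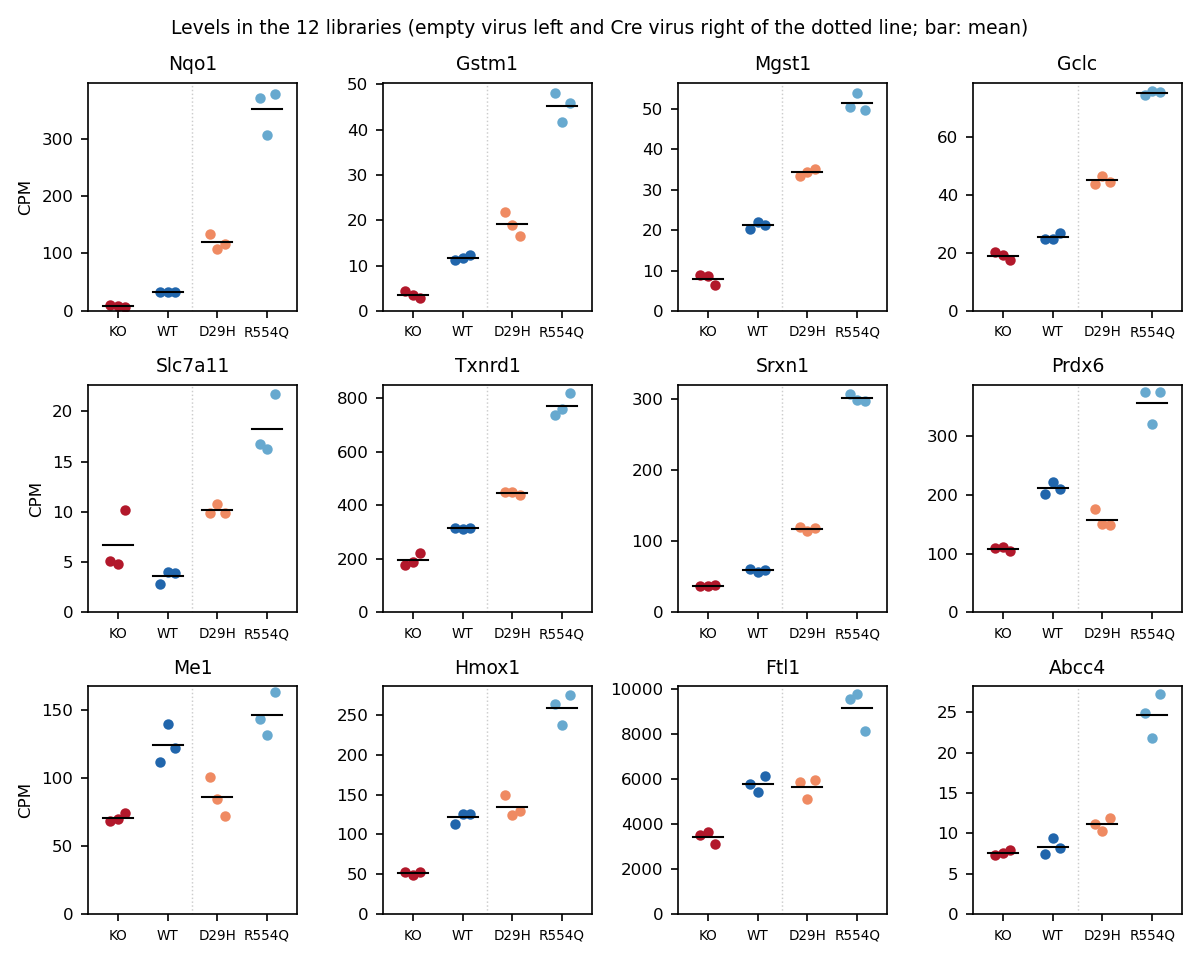
CPM of 12 NRF2 target genes, picked by hand from the roles described, in each of the 12 libraries (y axis, CPM; x axis, group), with empty-virus groups left and Cre-virus groups right of the dotted line and a bar at each group's mean. Labelled KO is the lowest group in 11 of 12 panels and R554Q the highest; in the Slc7a11 panel WT is the lowest.

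Whether the gap between the lines differed with and without Cre was tested directly as the difference of the 2 log2 differences over all 12 libraries. It passed the threshold for 4 of 14794 genes (0.027%; 1668 at an unadjusted p under 0.05), and all 4 are listed NRF2 targets. The number that passed was 60 with DESeq2, 2 with the replicate block and 26 without D29H replicate 1, so it depends on the tool and on single libraries. For Slc7a11 it was 1.69 (SE 0.30, adjusted p = 0.0436), from a gap of 0.86 with empty virus to -0.84 with Cre. For Abcc4 it was 1.01 (SE 0.17, adjusted p = 0.0436), from -0.13 to -1.15, and for Srxn1 0.69 (SE 0.11, adjusted p = 0.0402), from -0.66 to -1.36. For Mgst1 it was -0.82 (SE 0.15, adjusted p = 0.0436), from -1.39 to -0.58. Thus the line gap was wider after Cre for Abcc4 and Srxn1, narrower for Mgst1 and reversed for Slc7a11. These calls rest on single libraries: they were kept in 5 (Slc7a11), 4 (Abcc4), 5 (Srxn1) and 3 (Mgst1) of 12 fits without 1 library, with values of 1.30 to 1.88, 0.94 to 1.12, 0.67 to 0.73 and -0.90 to -0.70 over all alternatives. Without D29H replicate 2 or 3, WT replicate 1 or R554Q replicate 1 no gene passed.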

How the data were processed

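RNA of 12 fibroblast cultures was sequenced, and 6 libraries entered the main comparison. Per the submitters' processing notes the genome was mm10 and the tools were STAR and DESeq2; versions, annotation and use of strand are not given in the sources used here. Raw counts for each gene were deposited by the authors in 2 tables, 1 per line, per the file headers. The deposited FPKM, the normalised signal averaged by group, the log2 fold changes and the p-values in these tables entered no test. Gene positions were given as deposited.

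Counts were joined by gene identifier and analysed in R 4.3.3 with edgeR 4.0.16 (filterByExpr, TMM scaling, quasi-likelihood test, Benjamini-Hochberg adjusted p under 0.05) over 6 libraries, labelled KO minus WT. CPM are TMM-scaled. SEs were derived from the log2 fold change and its F statistic. Summed levels of lists are raw reads of a list scaled to all listed reads of the library (RPM). The pipeline was tested on simulated counts. Alternatives used DESeq2 1.42.0, limma 3.58.1, other scalings and filters, and fits without 1 library. Members and gene lists were chosen with earlier results of these data known. Genes named besides NRF2 targets were the 10 largest called rises and falls (mean of 100 counts, 10 in every library, no overlap), genes with at most 3 reads in one group, called Hox and positional genes, genes within 1 Mb of Nfe2l2 or Keap1, and up to 4 called members of other lists; a few genes that this rule names are not reported here. Genes in 1 table only (1270 and 1072) were left out.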

Additional observations from a re-analysis of the deposited data

Results flagged for a closer look

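The 4 genes named here are listed NRF2 targets whose gap between the lines differed between empty virus and Cre virus by a test of that difference itself (edgeR's quasi-likelihood test over 12 libraries, Benjamini-Hochberg adjusted over 14794 genes). The difference was 1.69 log2 units for Slc7a11, 1.01 for Abcc4, 0.69 for Srxn1 and -0.82 for Mgst1, where a positive value means that labelled KO over WT was greater than D29H over R554Q. Each had an adjusted p of 0.0402 or 0.0436, and each call was lost without some of the single libraries.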

How the results depend on the processing

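The direction of every called and named or listed gene held in every alternative: over 178 such genes and 17 settings, 2834 of 3012 gene and setting pairs kept their call, 178 lost it and 0 changed sign, and 137 genes kept it throughout. Other tools, scalings and filters gave 1418 to 1933 higher and 1352 to 2026 lower genes. At an adjusted p under 0.01 there were 965 higher and 871 lower genes, and of the NRF2 targets 19 lower and 0 higher. The NRF2 median was -0.36 with all 12 libraries in one fit. Without 1 library, 1127 to 2341 genes were higher and 1027 to 2112 lower, NRF2 targets higher ran from 0 to 2, D29H over R554Q gave 1044 to 2002 higher and 996 to 1956 lower, and the difference between the arms 0 to 26 genes. That difference passed for 60 genes with DESeq2. Replicate numbers did not pair the samples (correlation of deviations 0.073, -0.080 and -0.035); with the replicate block there were 1584 higher and 1552 lower genes, 25 lower and 2 higher NRF2 targets, and 2 genes for the difference between the arms. Protein-coding genes alone, an alternative chosen after seeing the data, gave 1688 higher and 1551 lower. Depth limits sparse genes: 4 listed NRF2 targets had too few reads to test, and the shallowest library held 14963004 reads.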
